A study of Mus musculus with 2 samples.

Results

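Tight junctions are the most apical contacts between neighbouring cells of an epithelium or endothelium, and they set how freely water, ions and solutes pass between the cells. Claudins are 4-pass membrane proteins that pair across the cleft and give a junction its selectivity, some forming pores and others sealing the cleft. Occludin is a second kind of membrane protein of the strand, and zonula occludens proteins hold both to the actin cytoskeleton. In the eye, junctions of the retinal pigment epithelium (RPE) form the outer blood-retinal barrier and those of retinal endothelium form the inner one.

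The levels of 8 claudin genes (Cldn1, Cldn2, Cldn3, Cldn5, Cldn6, Cldn11, Cldn12 and Cldn19), Ocln (occludin) and Tjp1 (ZO-1) were followed across the cell types of the mouse eye cup at e15.5. The genes were found by exact match of the symbol, 10 of 31053 genes in the count matrices, and each of the 10 reached 20 UMIs, both libraries together, in at least 1 of 5 main cell classes. A UMI (unique molecular identifier) stands for 1 captured transcript, whatever the number of its PCR copies. The control library came from Myrf fl/fl embryos, in which both copies of Myrf are flanked by loxP sites. The mutant library came from Rx>cre Myrf fl/fl embryos, which carry the same floxed alleles and a Cre recombinase driven by Rx sequence in the early eye field, so that tissues outside the Rx lineage keep Myrf. Each library pooled 3 samples at e15.5, cleared of cornea, lens and optic nerve, dissociated with papain and captured with 10x Genomics 3′ chemistry. The comparison asked how loss of MYRF, a transcription factor of the RPE, goes with the level of junction genes in the RPE and in its neighbours.

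There was 1 library per genotype and hence no replicate check. Levels are given as CPM, the UMIs of a gene per 1e+06 UMIs of the class, with 95% intervals that cover counting error only, and no test between genotypes was made. The libraries held 13017 control and 13880 mutant barcodes with medians of 9339 and 8702 UMIs, and 11518 and 12576 cells were kept. Both libraries shared 69 barcodes, 0.530% and 0.497% of each, of which 59 were kept in both and 13 of these fell in the same class. The libraries differed in the sex of their embryos: a Y-linked UMI was found in 0.0260% of control and 41.7% of mutant kept cells. Myrf itself had 293 UMIs in control and 55 in mutant RPE-like cells, or 77.5 and 29.7 CPM. The 3′ tags read the end of a transcript, and whether that end lies between the loxP sites was not given in the sources used here.

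The classes were RPE-like (368 control and 198 mutant cells), endothelial-like (164 and 127), surface epithelial-like (83 and 111), mesenchyme-like (2220 and 1674) and neural retina-like cells (4312 and 6204). Of their 12 markers each, 11 were found in at least 25% of the endothelial-like cells, 12 in the surface epithelial-like cells and 11 in the mesenchyme-like cells of both libraries. RPE-like cells showed 10 of 12 in the control and 9 of 12 in the mutant, and Rpe65, the isomerase of the visual cycle, was at 0 UMIs there in both. RPE-like cells were shallower in the mutant, with a median of 3642 UMIs against 6906. No gene of the junction list was used to build or name the clusters. The RPE-like, endothelial-like and surface epithelial-like cells were 1 cluster each. Haemoglobin-rich erythroid-like cells (495 and 433 cells, medians of 16589 and 16510 UMIs) served to show what free RNA contributes to a gene.

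The bases just before the start sites of 4 of the genes are shown because these genes span the distributions described here: Cldn2 was found in RPE-like cells, Cldn5 mainly in endothelial-like and amacrine or horizontal-like cells, Cldn3 mainly in surface epithelial-like cells, and Tjp1 in nearly every class. The sequences are the 150 bases upstream of RefSeq starts in GRCm38.p6, on the strand of the gene, at chrX:139800658-139800807 (plus strand, Cldn2), chr16:18776697-18776846 (plus, Cldn5), chr5:134986064-134986213 (plus, Cldn3) and chr7:65371245-65371394 (minus, Tjp1). The Tjp1 window lies inside the annotated gene (chr7:65296165-65527781), before a RefSeq start downstream of the annotated 5′ end. Capitals mark any of 6 hexamers searched on both strands, which were 4 E-boxes, a GC box and a TATA box.
Cldn2: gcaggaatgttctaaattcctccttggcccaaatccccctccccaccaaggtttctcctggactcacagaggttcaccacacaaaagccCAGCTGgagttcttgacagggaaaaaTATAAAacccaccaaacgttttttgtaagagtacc
Cldn5: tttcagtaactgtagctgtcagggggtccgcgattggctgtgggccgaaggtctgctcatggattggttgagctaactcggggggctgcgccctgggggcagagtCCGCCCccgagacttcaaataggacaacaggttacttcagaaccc
Cldn3: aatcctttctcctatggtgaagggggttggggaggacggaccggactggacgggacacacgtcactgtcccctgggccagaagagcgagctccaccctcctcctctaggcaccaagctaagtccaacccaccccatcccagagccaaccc
Tjp1: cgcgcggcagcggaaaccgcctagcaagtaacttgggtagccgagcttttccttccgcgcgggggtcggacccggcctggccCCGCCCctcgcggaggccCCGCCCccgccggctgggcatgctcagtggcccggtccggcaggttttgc
Of all 32851 start windows of this length, 4.30% held the E-box CACGTG, 7.15% held CATGTG, 8.39% held CAGCTG and 10.6% held CAGGTG. The GC box GGGCGG was in 28.6% of them and the TATA box TATAAA in 7.57%. The Cldn2 window held TATAAA from 35 to 30 bases before the start and CAGCTG from 61 to 56 bases before it, without overlap, and was alone among the 14 windows of the 10 genes in holding TATAAA. Its GC content was 47.3%, against 58.7% for Cldn5, 62.0% for Cldn3, 74.0% for Tjp1 and a median of 54.0% over all windows. The Tjp1 window held GGGCGG 2 times, the Cldn5 window held it from 45 to 40 bases before the start, and the Cldn3 window held none of the 6. A match describes these letters and is not evidence of binding.

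**Figure D1:**
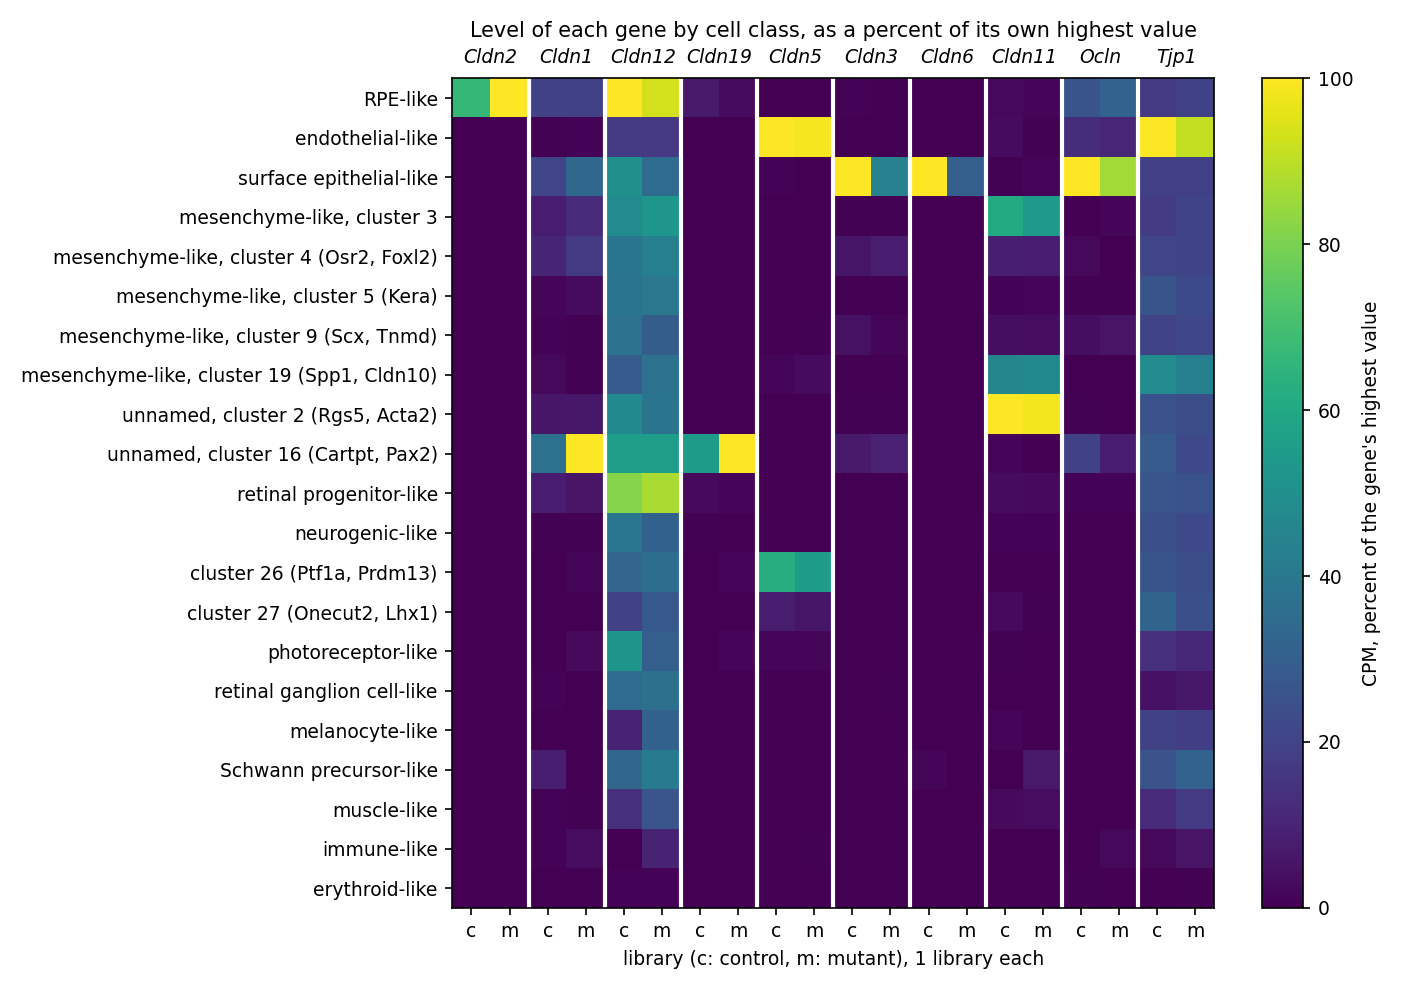
Level of each of the 10 genes (columns, control c and mutant m) in each cell class (rows), as percent of the highest CPM of that gene. Cldn2 is filled in the RPE-like row and Cldn6 in the surface epithelial-like row, while Tjp1 is spread over nearly all classes and peaks in endothelial-like cells.

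Cldn2, which forms a pore for sodium ions and water, was found almost entirely in RPE-like cells and at a level that could not be told apart between the libraries. It had 38 UMIs in control RPE-like cells, 10.0 CPM (7.11 to 13.8), and 28 UMIs in mutant ones, 15.1 CPM (10.0 to 21.8). Mutant over control, this was a ratio of 1.5 (0.888 to 2.51), an interval that holds 1. These UMIs were 100% of all Cldn2 UMIs of kept control cells and 96.6% of those of mutant cells, and the other 4 main classes had 0.

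RPE-like cells with a Cldn2 UMI made up 7.34% (4.89 to 10.5) in the control and 7.58% (4.30 to 12.2) in the mutant, and none of the 495 and 433 erythroid-like cells had one, which at a floor of 3 counts allows up to 0.606% and 0.693% of cells with a UMI. After each cell was thinned to 2000 UMIs, which left 245 and 122 RPE-like cells, the shares were 2.45% and 1.64% and the levels 12.2 and 12.3 CPM. Cldn2 is X-linked. In cells that had Xist but lacked Y-linked UMIs, 187 control and 42 mutant, it stood at 9.28 and 9.91 CPM. Naming cells by marker UMIs in place of clusters gave 14.7 and 30.8 CPM, a ratio of 2.09. With cells over 20000 UMIs removed the Cldn2 log2 ratio was -0.23, so the direction turned with the setting.

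Cells with Cldn2 were deep, with medians of 15773 control and 21158 mutant UMIs, against 6137 and 3268 for RPE-like cells without it. Cldn10, which forms cation or anion pores depending on its isoform, was found with Cldn2 in 59.3% and 73.3% of the cells that held the latter, and in 12.9% and 12.6% of those without. Cldn1 was found in 33.3% and 26.7% of the cells with Cldn2, and in 7.33% and 6.56% of those without. These shares were not set to 1 depth, and the part of depth in them was not tested.

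Among the sealing claudins, Cldn1, a barrier-forming claudin best known from skin, was spread over many classes. Neural retina-like cells held 35.3% of its UMIs in kept control cells and 34.9% in mutant ones, mesenchyme-like cells 24.4% and 24.9%, RPE-like cells 12.9% and 5.82%, and surface epithelial-like cells 5.29% and 10.5%. RPE-like cells of the control held 44 UMIs and those of the mutant 21, 11.6 CPM (8.45 to 15.6) and 11.3 CPM (7.01 to 17.3), a ratio of 0.973 (0.550 to 1.67). With cells over 20000 UMIs removed the levels were 17.6 and 6.35 CPM on 36 and 6 UMIs, 2.77-fold lower in the mutant. With a mitochondrial share up to 5% they were 6.87 and 13.1 CPM on 7 and 7 UMIs, a ratio of 1.91, and after thinning 16.3 and 4.10 CPM on 8 and 1 UMIs, so the direction turned with the setting. In surface epithelial-like cells it had 18 and 38 UMIs, 12.4 CPM (7.33 to 19.5) and 20.1 CPM (14.2 to 27.5), a ratio of 1.62 (0.903 to 3.02).

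In each library the intervals of RPE-like and surface epithelial-like cells overlapped, and both lay above mesenchyme-like cells at 2.74 CPM (2.19 to 3.40) in the control and 3.77 CPM (3.03 to 4.64) in the mutant. Neural retina-like cells stood at 2.53 CPM (2.10 to 3.02) and 1.93 CPM (1.61 to 2.30), and within them most Cldn1 was in progenitor-like cells, at 4.45 and 3.17 CPM. Endothelial-like cells held 1 UMI in each library and erythroid-like cells 0.

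The highest Cldn1 level was in an unnamed cluster of 57 control and 57 mutant cells (cluster 16) led by Cartpt, Pax2, Wnt8b and Zic4. There were 13 Cldn1 UMIs in control cells, 22 CPM (11.7 to 37.6), and 42 in mutant cells, 59.1 CPM (42.6 to 79.9). The mutant level was 2.69-fold higher (1.42 to 5.46), though 8 and 15 cells held all the UMIs and the 5 richest held 76.9% and 64.3% of them. In the same cells the 8 neurogenic markers stood at 161 and 435 CPM, the 6 of the ciliary margin at 938 and 1240 CPM, the 8 of photoreceptors at 22 and 53.5 CPM and the 8 of Schwann precursors at 725 and 346 CPM, and their part in the Cldn1 difference was not tested. Of the cells with Pax2, a transcription factor of the optic stalk, 1 of 27 in the control and 0 of 28 in the mutant had Cldn1, against 23.3% and 51.7% of the cells of this cluster without Pax2. No cell of this cluster with Cldn1 had a Cldn3 UMI.

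Cldn12, a claudin without the PDZ-binding end of its relatives, was spread over RPE-like and retinal cells, with overlapping intervals of the libraries in both. RPE-like cells had 57 control and 26 mutant UMIs, 15.1 CPM (11.4 to 19.5) and 14.0 CPM (9.16 to 20.5), a ratio of 0.930 (0.561 to 1.5). Retinal progenitor-like cells stood at 12.4 CPM (11 to 13.8) and 13.2 CPM (12.0 to 14.4), overlapping RPE-like cells. Neural retina-like cells as a whole followed at 9.25 and 9.41 CPM, and mesenchyme-like cells at 5.72 CPM (4.90 to 6.64) and 6.08 CPM (5.13 to 7.15). Endothelial-like cells held 6 and 4 UMIs.

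Cldn19, the claudin that dominates mature human RPE junctions, was scarce. Control RPE-like cells had 5 UMIs and mutant ones 1, 1.32 CPM (0.429 to 3.08) and 0.539 CPM (0.0136 to 3.00), too few for a comparison. Its highest level was again in cluster 16, with 6 and 13 UMIs, 10.1 CPM (3.72 to 22.1) and 18.3 CPM (9.74 to 31.3). Endothelial-like, surface epithelial-like, mesenchyme-like and erythroid-like cells had 0.

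**Figure D2:**
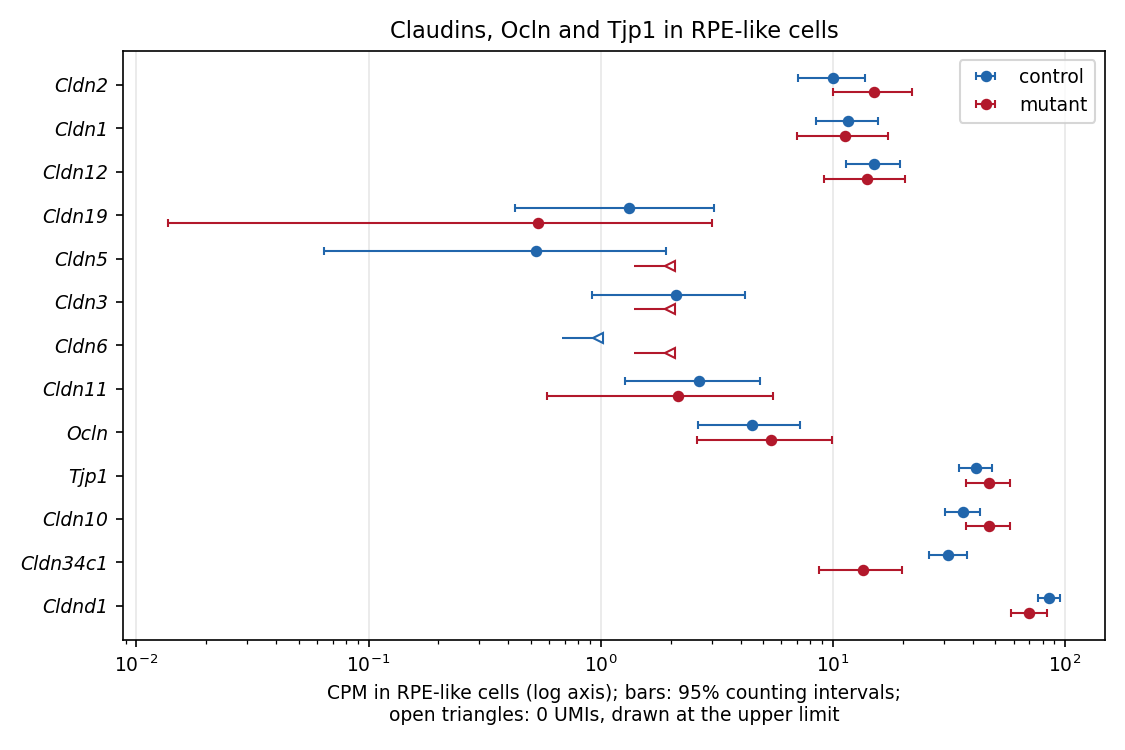
Levels in RPE-like cells as CPM on a log axis with 95% counting intervals, control and mutant, where an open triangle marks 0 UMIs at the upper limit. Those of the 10 genes with at least 20 UMIs have overlapping intervals in both libraries, as for Cldn2 at 10.0 and 15.1 CPM. Cldn34c1, a further claudin-like gene drawn here, is lower in the mutant with intervals apart.

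Cldn5, the main sealing claudin of the blood-brain and inner blood-retinal barriers, was highest in endothelial-like cells and differed there by less than counting error. It had 1801 control and 1266 mutant UMIs, 803 CPM (766 to 841) and 791 CPM (748 to 836), a ratio of 0.986 (0.917 to 1.06). The median cell held 4.5 UMIs among control and 4.0 among mutant cells. A UMI was found in 78.0% (70.9 to 84.1) and 76.4% (68.0 to 83.5) of the cells, and in 73.2% and 61.4% after thinning to 2000 UMIs, against 0.202% and 0.231% of erythroid-like cells. In cells that had Xist but lacked Y-linked UMIs, 107 control and 29 mutant, the levels were 806 and 1117 CPM. RNA of other cell types differed between the libraries in endothelial-like cells, where the 10 erythroid markers stood at 324 and 16625 CPM, the 8 neurogenic ones at 124 and 300 CPM and the 9 of melanocytes at 222 and 138 CPM, and its part in the levels there was not tested.

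The next level after endothelial-like cells was in the neural retina, in a cluster of 303 control and 424 mutant amacrine or horizontal-like cells (cluster 26). It was led by Krt73, Ptf1a and Prdm13, the last 2 of which are transcription factors of amacrine and horizontal cell fate. Cldn5 had 1219 and 1456 UMIs there, 499 CPM (471 to 527) and 441 CPM (419 to 464), both below the endothelial-like intervals. The ratio was 0.884 (0.819 to 0.955), under the 2-fold limit used for the counts below.

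Cldn5 was found in 65.0% (59.4 to 70.4) and 57.3% (52.4 to 62.1) of the cells of cluster 26, and in 41.8% and 40.7% after thinning. The 12 endothelial markers together had 38 and 79 UMIs in it, among them 25 and 54 of Kdr, 1 and 3 of Pecam1, 1 and 1 of Cdh5, and 0 of Emcn in both libraries. Esam, an endothelial adhesion molecule outside that list, had 1 and 2, while Ptf1a stood at 1002 and 881 CPM. Over neural retina-like cells, 44.2% of control and 38.0% of mutant cells with Ptf1a had Cldn5, against 1.31% and 1.48% of those without. Endothelial-like cells held 54.2% of the Cldn5 UMIs of kept control cells and 40.4% of those of mutant cells, and cluster 26 held 36.7% and 46.5%.

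Lower Cldn5 levels followed in the other amacrine or horizontal-like cluster (cluster 27), at 64.8 CPM (50 to 82.6) and 46.2 CPM (36.5 to 57.6), and in photoreceptor-like cells, at 12.3 CPM (8.32 to 17.6) and 10.6 CPM (7.43 to 14.5). Control RPE-like cells had 2 UMIs and mutant ones 0. Control surface epithelial-like cells had 13 UMIs, all in 2 cells, and mutant ones 0.

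**Figure D3:**
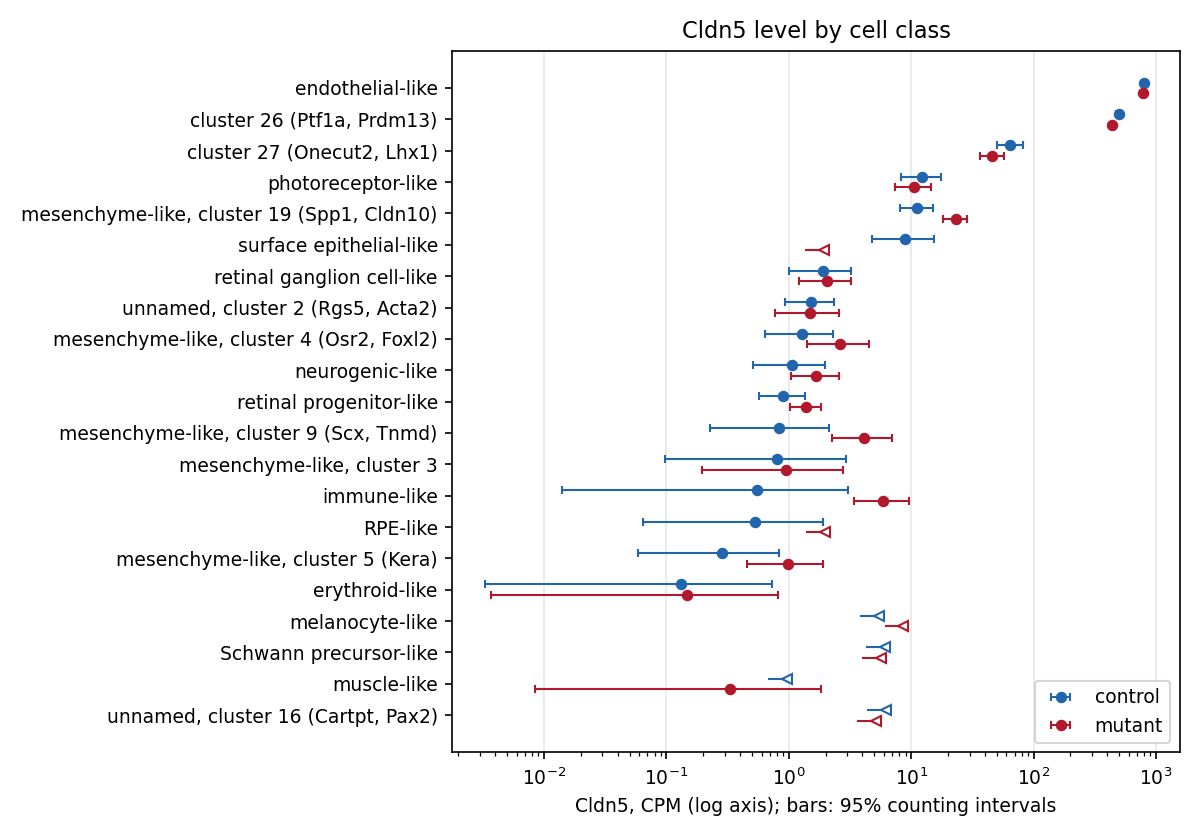
Cldn5 level by cell class and cluster as CPM on a log axis with 95% counting intervals, control and mutant, where an open triangle marks 0 UMIs at the upper limit. Endothelial-like cells stand at 803 and 791 CPM and cluster 26 between 441 and 499 CPM, each with the libraries close together.

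Cldn5 was the member that was past 2-fold higher in mutant mesenchyme-like cells, at a low level in both libraries. It had 63 control and 116 mutant UMIs, 2.08 CPM (1.60 to 2.67) and 4.86 CPM (4.02 to 5.83), a ratio of 2.33 (1.70 to 3.23). These came from 28 of 2220 and 42 of 1674 cells, and the 5 richest cells held 54.0% and 35.3% of them. With cells over 20000 UMIs removed the log2 ratio was 1.97, against 1.22 in the main setting. Without doublet removal the ratio was 1.04, at Leiden resolution 2.0 it was 1.75, and with classes from marker UMIs 1.99. In the same cells Ptf1a had 27 and 60 UMIs, Pecam1 12 and 21, Cdh5 11 and 7 and Esam 12 and 9, and the 12 endothelial markers together stood at 137 and 143 CPM, with 1 of 12 in at least 25% of cells in each library. Markers of other cell types were higher in these mutant cells, the 8 neurogenic ones at 79.5 and 173 CPM, the 10 of retinal progenitors at 422 and 649 CPM, the 5 of cartilage at 207 and 292 CPM and the 4 of the optic stalk with 34 and 74 UMIs. The 10 erythroid markers were lower, at 4081 and 3249 CPM. The part of other cells' RNA in the Cldn5 difference was not tested. Within the class the Cldn5 level was highest in cluster 19, led by Spp1 and Ecm1, at 11.1 CPM (8.06 to 15) and 23.1 CPM (18.2 to 28.9).

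Cldn3 and Cldn6 were the members at least 2-fold lower in mutant surface epithelial-like cells. Cldn3, a sealing claudin of many epithelia, had 307 control and 177 mutant UMIs, 211 CPM (188 to 236) and 93.4 CPM (80.2 to 108), 2.26-fold lower in the mutant (1.87 to 2.73). Cldn6, a claudin typical of embryonic epithelia, had 132 and 52 UMIs, 90.7 CPM (75.9 to 108) and 27.4 CPM (20.5 to 36.0), 3.30-fold lower (2.38 to 4.65). The intervals of the libraries did not overlap for either gene. Cldn12 had 11 and 10 UMIs in these cells, 7.56 and 5.28 CPM, a ratio of 0.698 (0.266 to 1.81).

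With all cells set to equal depth, Cldn6 was again lower in the mutant and Cldn3 stood close in both libraries. After thinning to 2000 UMIs, over 78 and 103 cells, Cldn6 had 15 and 4 UMIs, 96.2 and 19.4 CPM, and Cldn3 had 19 and 23 UMIs, 122 and 112 CPM, a ratio of 0.917. Thinning weights all cells alike. The 5 richest cells held 57.7% of control and 55.9% of mutant Cldn3 UMIs at full depth. Their part in the change of the Cldn3 ratio on thinning was not tested. With cells over 20000 UMIs removed the Cldn3 ratio was 0.559, with a mitochondrial share up to 5% it was 0.663, without the 5 richest cells of each library 0.420, and in cells that had Xist but lacked Y-linked UMIs 0.411. For Cldn6 these ratios were 0.343, 0.370, 0.345 and 0.286.

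A Cldn3 UMI was found in 31.3% (21.6 to 42.4) of control and 24.3% (16.7 to 33.4) of mutant surface epithelial-like cells, intervals that overlap. A Cldn6 UMI was found in 39.8% (29.2 to 51.1) and 23.4% (15.9 to 32.4), and after thinning in 14.1% (7.26 to 23.8) and 3.88% (1.07 to 9.65). Erythroid-like cells had 0 UMIs of either gene, with the same floor of 0.606% and 0.693% of cells. Cldn3 was found in 60.6% of control and 50% of mutant cells with Cldn6, and in 12.0% and 16.5% of those without. Cells with Cldn6 were deeper, with medians of 18286 control and 15873 mutant UMIs against 13328 and 13896 in cells without it, and the part of depth in these shares was not tested.

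Surface epithelial-like cells held 97.1% of the Cldn6 UMIs of kept control cells and 96.3% of those of mutant cells, and no other main class had more than 2. Cldn3 was found at lower levels elsewhere. Mesenchyme-like cells had 152 and 99 UMIs, 5.03 CPM (4.26 to 5.89) and 4.15 CPM (3.37 to 5.05), most of them in cluster 4, led by Mfap5 and Osr2, at 12.0 CPM (9.76 to 14.5) and 16.5 CPM (13.1 to 20.5). In cluster 9, led by the tendon genes Tnmd and Scx, it was 3.59-fold lower in the mutant (1.74 to 8.34), on 46 and 9 UMIs. Control RPE-like cells had 8 UMIs and mutant ones 0, at least 1.31-fold lower against a floor of 3 UMIs.

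**Figure D4:**
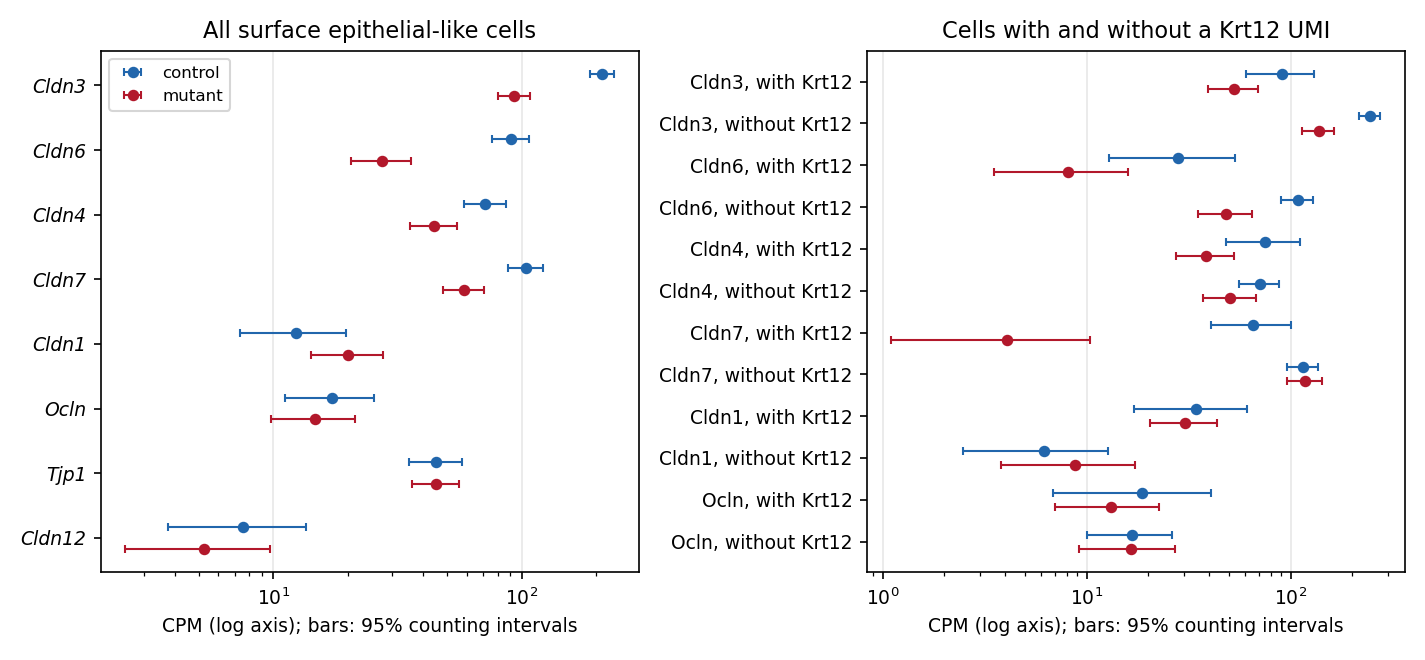
Levels in surface epithelial-like cells as CPM with 95% counting intervals, control and mutant. Cldn3 (211 and 93.4 CPM) and Cldn6 (90.7 and 27.4 CPM) are lower in the mutant with intervals apart.

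The surface epithelial-like cells of the libraries also differed in keratins. Krt12, the keratin of corneal epithelium, had 387 control and 2899 mutant UMIs, 266 and 1530 CPM, and was found in 25.3% and 56.8% of the cells, although the cornea had been removed at dissection. Krt5 and Krt14, keratins of basal cells, stood at 1130 and 1648 CPM and at 643 and 1065 CPM. Krt8 and Krt18, keratins of simple epithelia, stood at 490 and 263 CPM and at 379 and 195 CPM.

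The cells were also split by a Krt12 UMI, a split chosen after these values were seen. Cldn3 stood at 90.5 and 52.8 CPM in the 21 control and 63 mutant cells with Krt12, a ratio of 0.583, and at 245 and 137 CPM in the 62 and 48 cells without, a ratio of 0.561, so neither side was past 2-fold. Cldn6 stood at 28.1 and 8.12 CPM with Krt12, a ratio of 0.289 (0.0971 to 0.844) on 9 and 8 UMIs, and at 108 and 48.4 CPM without, a ratio of 0.447 (0.309 to 0.635). Cldn1 stood at 34.3 and 30.5 CPM with Krt12 and at 6.17 and 8.80 CPM without. The 10 erythroid markers summed to 11240 and 7559 CPM in these cells and the 12 mesenchyme markers to 330 and 279 CPM. Other marker lists were higher in the mutant cells, the 8 neurogenic markers at 179 and 486 CPM, the 8 of photoreceptors at 28.2 and 74.9 CPM, the 10 of retinal progenitors at 1174 and 1523 CPM and the 8 of Schwann precursors at 60.5 and 93.9 CPM. The part of Krt12-rich cells and of other cells' RNA in the Cldn3 and Cldn6 differences was not tested.

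Of the other claudins in these cells, Cldn4, Cldn7, Cldn8 and Cldn23 were below the control level in the mutant but not by 2-fold, while Cldn1 was at a ratio of 1.62. Cldn4, which seals against sodium ions, had 104 and 84 UMIs, 71.4 and 44.3 CPM, a ratio of 0.621 (0.460 to 0.835). Cldn7, which also lies along the basolateral membrane, had 152 and 111 UMIs, 104 and 58.6 CPM, a ratio of 0.561 (0.435 to 0.721). Among cells without Krt12 it was at 115 and 118 CPM and among those with it at 65.5 and 4.06 CPM. Cldn8 stood at 46.0 and 26.4 CPM and Cldn23 at 28.2 and 16.4 CPM.

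Cldn11, which builds the junctions of myelin, Sertoli cells and the stria vascularis, was highest outside the epithelia, with overlapping intervals of the libraries where it was highest. An unnamed cluster (cluster 2) held 69.7% of its UMIs in kept control cells and 59.0% in mutant ones. This cluster had mesenchyme markers but was led by Rgs5, a pericyte gene, with Tagln and Acta2 of contractile cells. Cldn11 had 1489 and 902 UMIs there, 113 CPM (107 to 119) and 111 CPM (104 to 119), a ratio of 0.984 (0.904 to 1.07). A UMI was found in 60.7% (57.1 to 64.3) and 57.3% (52.7 to 61.8) of its cells and in 18.8% and 18.0% after thinning, against 0 of the erythroid-like cells.

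The following Cldn11 levels were in cluster 3, led by Nts and Vcan, at 69.3 CPM (59.3 to 80.5) and 60.9 CPM (52.6 to 70.1), and cluster 19, at 51.6 CPM (44.6 to 59.2) and 54.0 CPM (46.4 to 62.5). The intervals of clusters 3 and 19 were apart in the control and overlapped in the mutant. All mesenchyme-like cells had 483 and 446 UMIs, 16 CPM (14.6 to 17.5) and 18.7 CPM (17.0 to 20.5), a ratio of 1.17 (1.03 to 1.33). Without doublet removal the log2 ratio was -0.19, so the direction turned with the setting. RPE-like cells had 10 and 4 UMIs.

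For occludin and ZO-1 the interval of the ratio held 1 in RPE-like, endothelial-like and surface epithelial-like cells. Ocln was highest in surface epithelial-like cells, with 25 control and 28 mutant UMIs, 17.2 CPM (11.1 to 25.4) and 14.8 CPM (9.82 to 21.4), a ratio of 0.861 (0.484 to 1.54). In cells that had Xist but lacked Y-linked UMIs, the Ocln log2 ratio, surface epithelial-like cells taken alone, was -1.04 on fewer than 20 UMIs. RPE-like cells followed with 17 and 10 UMIs, 4.49 CPM (2.62 to 7.19) and 5.39 CPM (2.59 to 9.91), with an interval below the epithelial one in the control and overlapping it in the mutant. Endothelial-like cells had 5 and 3 UMIs, and mesenchyme-like cells 7 and 5. In surface epithelial-like cells, Cldn3 was found in 84.6% of control and 86.7% of mutant cells with Ocln, and in 21.4% and 14.6% of those without. Cells with Ocln had medians of 18376 and 20021 UMIs, against 14916 and 13888 without, and the part of depth was not tested.

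Tjp1 had the widest distribution and peaked in endothelial-like cells, with 540 and 350 UMIs, 241 CPM (221 to 262) and 219 CPM (196 to 243), a ratio of 0.909 (0.792 to 1.04). Mesenchyme-like cells stood at 62.3 CPM (59.5 to 65.2) and 58.6 CPM (55.6 to 61.8), and neural retina-like cells at 53.7 CPM (51.6 to 55.8) and 50.9 CPM (49.2 to 52.7). Surface epithelial-like cells, at 45.3 CPM (35.1 to 57.7) and 45.4 CPM (36.3 to 56.1), and RPE-like cells, at 41.2 CPM (35.0 to 48.2) and 46.9 CPM (37.6 to 57.9), could not be told apart in either library.

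Tjp1 UMIs of RPE-like cells numbered 156 and 87, a ratio of 1.14 (0.865 to 1.49). With a mitochondrial share up to 5%, 146 and 93 cells, it was 29.4 and 59.9 CPM, a ratio of 2.04. Among named classes other than erythroid-like cells, the lowest Tjp1 levels were in retinal ganglion cell-like cells, at 12.1 CPM (9.65 to 15) and 15.6 CPM (13.1 to 18.4), and in immune-like cells, at 5.52 CPM (2.65 to 10.1) and 12.2 CPM (8.42 to 17.2). Erythroid-like cells had 2 and 12 UMIs, 0.263 and 1.76 CPM.

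Counted over the classes, few of the 10 genes were past 2-fold. With a minimum of 20 UMIs in both libraries together, 0 of 5 members were past it in RPE-like cells, where 1.47% of 10975 genes were at least 2-fold higher and 2.43% at least 2-fold lower in the mutant. In endothelial-like cells 0 of 2 members were past it, against 1.46% of 9861 genes higher and 1.89% lower. In surface epithelial-like cells 0 of 6 were higher and 2 lower, against 3.07% and 1.89% of 9853 genes. In mesenchyme-like cells 1 of 6 was higher and 0 lower, against 2.31% and 0.833% of 14398 genes, and in neural retina-like cells 0 of 7 moved so far, against 0.845% and 0.754% of 15380 genes.

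The median log2 ratio of the members with 20 UMIs was 0.19 in RPE-like cells, against -0.05 over all genes, and -0.37 in surface epithelial-like cells, against -0.02. It was -0.08 against -0.04 in endothelial-like, 0.16 against -0.02 in mesenchyme-like and -0.17 against -0.02 in neural retina-like cells. These are counts and medians of 1 library pair and were not tested.

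**Figure D5:**
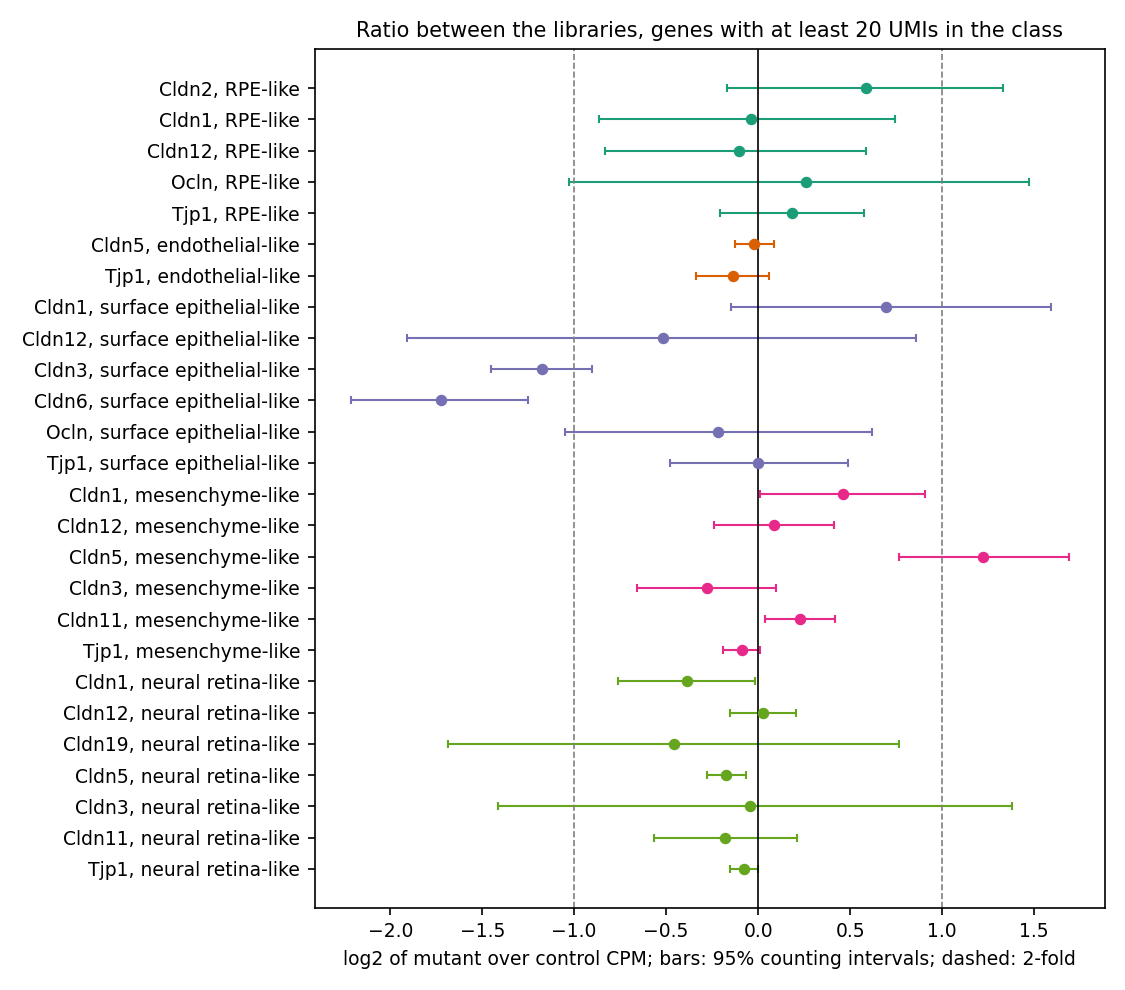
Log2 ratio of mutant to control for members with at least 20 UMIs, by class, with 95% counting intervals, and dashed lines at 2-fold. Cldn3 and Cldn6 in surface epithelial-like cells lie past the lower line and Cldn5 in mesenchyme-like cells past the upper one.

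A wider list of 74 junction genes, the members among them, was counted in the same way. In RPE-like cells 37 were measured with at least 20 UMIs, with 1 past 2-fold higher, Jam2, and 1 lower, Cldn34c1. In endothelial-like cells 1 of 25 was higher, Lsr of tricellular junctions, with 6 and 14 UMIs. In surface epithelial-like cells 1 of 42 was higher, Pard3b of the polarity complex with 6 and 23 UMIs, and 4 were lower, Cldn3, Cldn6, the scaffold Tjp3 with 22 and 11 UMIs and the apical polarity gene Crb3 with 51 and 23. In mesenchyme-like cells 2 of 41 were higher, Cldn5 and Crb1, and 1 lower, Cldn9, and in neural retina-like cells 0 of 47 passed.

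Jam2, a junctional adhesion molecule, had 22 UMIs in control and 28 in mutant RPE-like cells, 5.82 and 15.1 CPM, 2.60-fold higher (1.43 to 4.76). In cells with a mitochondrial share up to 5% the ratio was 1.27, on 9 and 6 UMIs. Cldn34c1, an X-linked claudin-like gene, had 119 and 25 UMIs, 31.5 and 13.5 CPM, 2.33-fold lower (1.51 to 3.75). In cells that had Xist but lacked Y-linked UMIs it stood at 31.1 and 14.9 CPM, and after thinning at 28.6 and 24.6 CPM, a ratio of 0.861, while neural retina-like cells had 20.9 and 21.2 CPM. In RPE-like cells the 10 retinal progenitor markers stood at 1368 and 1880 CPM, the 4 of the optic stalk at 16.1 and 27.5 CPM, the 8 of Schwann precursors at 42.8 and 16.2 CPM and the 10 erythroid ones at 8506 and 4852 CPM, and their part in the Jam2 and Cldn34c1 differences was not tested.

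Of the other claudins, Cldn10 had 137 and 87 UMIs in RPE-like cells, 36.2 and 46.9 CPM, a ratio of 1.30 (0.978 to 1.71). In RPE-like cells that had Xist but lacked Y-linked UMIs its log2 ratio was -0.79, so the direction turned with the setting. In mesenchyme-like cells Cldn10 stood at 13.9 and 22.5 CPM, a ratio of 1.62 (1.42 to 1.85), and in cluster 19 at 60.9 and 108 CPM, where 1 mutant cell held 49 of the 360 UMIs. At Leiden resolution 0.5 the log2 ratio over mesenchyme-like cells was 0.08. Cldn9 had 32 and 12 UMIs in mesenchyme-like cells, 2.10-fold lower (1.05 to 4.48). Cldnd1, a claudin-domain gene, was found in all 5 classes, from 62.3 CPM in mutant surface epithelial-like cells to 122 CPM in control mesenchyme-like cells. Cldn15 had 9 and 12 UMIs in neural retina-like cells.

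The genes closest in pattern to each member were found by Pearson correlation of log2(CPM + 1) over 61 points, the clusters of each library with at least 50 cells, which share libraries and depth. Cldn6 was followed most closely by Gabrp at 0.995, Fgfbp1 at 0.993 and Ap1m2 at 0.987. The surface epithelial-like cluster held 97.1% of control and 96.3% of mutant Cldn6 UMIs, so the points of that cluster weigh heavily in these values. Cldn3 was closest to Prss8 at 0.847, Sbspon at 0.833 and Eppk1 at 0.817, and Ocln to Upk3bl at 0.867, 2610528J11Rik at 0.856 and Upk1b at 0.850. Cldn5 was closest to Rapgef5 at 0.728, Prdm13 at 0.725 and Spns2 at 0.718.

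For Cldn11 the closest were Gdf10 at 0.887, Pgf at 0.862 and Kcns3 at 0.857, and for Cldn12 Tmem237 at 0.880, Map2k6 at 0.851 and Lrrc42 at 0.846. Tjp1 was closest to Luzp1 at 0.919, Hmg20b at 0.902 and Prkd3 at 0.892. Cldn1 was closest to Pltp at 0.754, Baiap2l1 at 0.748 and Aldh1a7 at 0.744. Cldn2 with 67 UMIs and Cldn19 with 54 over all kept cells were below the minimum of 100 UMIs for this ranking.

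In the annotation of GRCm38, Cldn3 (chr5:134986214-134987472, plus strand) overlapped Wbscr25 on the other strand, Cldn19 (chr4:119255414-119262438, plus) overlapped Gm12927 on the other strand, and Tjp1 (chr7:65296165-65527781, minus) overlapped Gm44795 on the other strand and Gm44794 and Gm44792 on its own, so that reads of Tjp1 and of the last 2 could be split by the counting. The remaining members overlapped no other gene. They lay at chrX:139800828-139811386 (Cldn2), chr16:26356642-26371841 (Cldn1), chr16:18776847-18778262 (Cldn5), chr17:23679249-23682446 (Cldn6), chr3:31149920-31164324 (Cldn11), chr5:5489537-5514958 (Cldn12) and chr13:100496507-100552718 (Ocln).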

How the data were processed

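The files deposited by the authors hold whole-number UMI counts for 31053 genes, without normalization, in 1 matrix per genotype, aligned to GRCm38 (mm10). The submitters' processing notes name Cell Ranger 7.1.0 and Seurat 4.1.1, and the matrix headers give software version 3.1.0. The barcodes were those called as cells, with no further filter. The junction genes, the wider list and the cell type markers were chosen with earlier results of these data known.

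Cells with fewer than 200 genes or more than 15% mitochondrial UMIs were removed, then, library by library, the doublets that Scrublet (in scanpy 1.11.5) called at an expected rate of 0.8% per 1000 barcodes (424 control and 442 mutant, 3.55% and 3.40%). The counts of each cell were scaled to 10000 and put on a log scale, and both libraries were clustered together on 1875 of 2000 variable genes (30 principal components, 15 neighbours, Leiden resolution 1.0) with junction genes, class markers and the genes of haemoglobin, mitochondria and sex left out. Of 33 clusters, 26 were named "-like" from the markers. The naming limits were set after the data were seen: a mean log2 fold of at least 0.8 with 5 CPM added, 50% of the markers in at least 25% of cells, and a lead of 0.3 over the next class. Cluster 2 stayed unnamed because a gene of another class was among its leading genes. Cluster 16 had the ciliary margin as its best class and stayed unnamed because its lead over the next class was under 0.3. All unnamed clusters together took in 29.7% and 26.6% of kept cells, most of them shallow. Names rebuilt here can differ from the study's.

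UMIs were summed per class and library. CPM carry exact Poisson intervals, ratios exact conditional binomial intervals and shares exact Clopper-Pearson intervals, all for counting error only (a share of 0 carries the limit of 3 counts, for cells with a UMI, in place of that interval) and all treating UMIs as independent, which they are not where a few cells carry a gene. A gene at 0 in 1 library was set to a floor of 3 counts, and no ratio was formed where both had 3 or fewer. A gene was counted as past 2-fold only if its UMIs in both libraries came to at least 20. The genes named were all members, further claudins with at least 20 UMIs in a main class, listed genes past 2-fold in RPE-like cells with an interval that leaves out 1, and the 3 genes closest in pattern to each member. Genes of the list named past 2-fold in other classes, and keratins and marker genes given as context, were chosen after their values were seen. The summing and counting were tested on simulated data. Python 3.11.15, numpy 2.4.6, scipy 1.17.1, pandas 2.3.3, anndata 0.12.19 and matplotlib 3.10.9 were used. Start windows came from RefSeq for GRCm38.p6 and matched 10 of 10 members. The study's limit of 2000 UMIs per cell, which 79.1% of control and 80.6% of mutant barcodes exceed, was tried only as 1 of 15 alternatives. Other time points of the study were not used here.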

Additional observations from a re-analysis of the deposited data

How the results depend on the processing

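No paired analysis was possible because each genotype had 1 library. Over 15 alternatives no direction of a called gene reversed. The numbers of members past 2-fold were 0 in RPE-like, 0 in endothelial-like, 2 in surface epithelial-like, 1 in mesenchyme-like and 0 in neural retina-like cells, and for the wider list 2, 1, 5, 3 and 0 in the same order. With a mitochondrial share up to 5% they were 1 member in RPE-like cells (Tjp1) and 1 in surface epithelial-like cells (Cldn6), and 4, 0 and 5 listed genes in RPE-like, endothelial-like and mesenchyme-like cells. Without doublet removal both mesenchyme-like counts were 0. With cells over 20000 UMIs removed there was 1 member in RPE-like cells (Cldn1) and 1 in surface epithelial-like cells (Cldn6), and 2 and 1 listed genes in endothelial-like and neural retina-like cells. With each cell thinned to 2000 UMIs, 0 members and 0 listed genes passed in surface epithelial-like cells, where Cldn6 fell below 20 UMIs, 0 listed genes in RPE-like cells, and 1 of each in neural retina-like cells (Cldn11). Without the 5 richest cells the list counts were 4 in RPE-like, 0 in endothelial-like and 8 in surface epithelial-like cells.

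At Leiden resolution 2.0 the mesenchyme-like counts were 0 members and 1 listed gene. With classes from marker UMIs per cell they were 0 and 0, and RPE-like cells had 1 member (Cldn2) and 4 listed genes. With a minimum of 4 UMIs the members were 1 in RPE-like, 1 in endothelial-like and 4 in surface epithelial-like cells, and the listed genes 5, 5, 10, 5 and 1 in the 5 classes. With free RNA subtracted the list counts were 0 in endothelial-like and 5 in mesenchyme-like cells, and in cells that had Xist but lacked Y-linked UMIs 1 in mesenchyme-like cells. Removing cells over 2000 UMIs, the study's limit, or cells with markers of another main class left few cells, and then the surface epithelial-like and mesenchyme-like member counts were 0 and the list counts 0 in RPE-like, endothelial-like, surface epithelial-like and mesenchyme-like cells. Centring, Leiden resolution 0.5 and removing cells under 2000 UMIs moved none of these counts by over 1.5 times. Of the values of single genes, 180 moved past their counting interval and 903 did not. With 1 library per genotype, the shallow mutant RPE-like cells and the few surface epithelial-like cells limit what these counts can show.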
